A study of Homo sapiens with 2 samples.

Results

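The genes of the epithelial-mesenchymal transition (EMT) and of the breast lineages were chosen by name and comprised 39 of the 19680 protein-coding genes analysed. They fell into 19 mesenchymal and basal genes and 20 luminal and epithelial genes. The question was where the chromatin proteins PRMT6 and PARP1 were mapped around these genes in MDA-MB-231 cells. This established human line comes from a triple-negative breast cancer and has a mesenchymal appearance in culture. The data comprised 1 library made with an antibody against PRMT6 and 1 made with an antibody against PARP1 (both from Cell Signaling Technology), each from cultured, untreated cells that carry no engineered change. No control library was analysed here, so neither list had a background measured in the same way. With 1 library for each antibody there was no replicate check, and all values describe these libraries.

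PRMT6 is an enzyme that methylates arginine residues of histones and other proteins, and PARP1 attaches ADP-ribose to proteins during DNA repair and transcription. In the EMT, transcription factors of the SNAI, ZEB and TWIST families repress epithelial junction genes such as CDH1, and cells gain motility, vimentin filaments and matrix proteins. Luminal breast cells are kept by factors such as GATA3, FOXA1 and the estrogen receptor, and triple-negative cells by definition lack estrogen receptor, progesterone receptor and amplified ERBB2. The lists hold no expression values, so the identity of the line and the activity of each gene were not checked.

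Peaks are intervals of the genome where a library held more fragments than its surroundings. The PRMT6 list held 9080 peaks and the PARP1 list 11651. Each peak carried a score, the −log10 of the p-value from the authors' peak caller. Scores of libraries that may differ in depth are not comparable, so a peak is described by its rank in its own list, with rank 1 for the highest score. A promoter peak had at least 1 bp within 3 kb of the 5′ end of the gene record in GRCh38. Other peaks of a gene lay inside its record, or outside it and within 50 kb. Shares are given with 95% exact binomial intervals, which cover counting error only.

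Of the 39 genes, 3 had promoter peaks in both lists, namely VIM, CAV1 and ITGB1. All 3 belonged to the mesenchymal and basal group. The promoter sequences of CAV1 and ITGB1 and that of ERBB2, which had a promoter peak in the PARP1 list, are shown because the peaks lay over them. The ERBB2 peak is also at the promoter of PGAP3 and lies 11955 bp upstream of the canonical start of ERBB2. Capitals mark the bases under both peaks for CAV1 and ITGB1, and under the PARP1 peak for ERBB2. Each sequence is the 250 bases before the 5′ end, written 5′ to 3′ on the strand of the gene, from RefSeq (GRCh38.p14).
CAV1, chr7:116524759-116525008, plus strand: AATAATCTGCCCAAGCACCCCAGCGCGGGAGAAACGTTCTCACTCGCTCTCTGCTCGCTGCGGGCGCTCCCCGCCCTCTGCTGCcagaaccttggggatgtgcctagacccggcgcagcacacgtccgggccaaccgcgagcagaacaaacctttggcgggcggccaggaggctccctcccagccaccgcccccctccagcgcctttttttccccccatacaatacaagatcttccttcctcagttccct
ITGB1, chr10:32958231-32958480, minus strand: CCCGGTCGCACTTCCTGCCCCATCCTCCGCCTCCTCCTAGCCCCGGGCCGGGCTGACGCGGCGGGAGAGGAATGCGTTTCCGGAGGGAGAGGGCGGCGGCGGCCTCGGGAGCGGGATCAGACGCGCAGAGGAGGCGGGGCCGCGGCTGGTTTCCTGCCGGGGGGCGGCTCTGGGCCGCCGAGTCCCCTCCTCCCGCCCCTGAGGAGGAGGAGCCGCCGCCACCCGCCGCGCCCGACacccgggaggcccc
ERBB2, chr17:39687844-39688093, plus strand: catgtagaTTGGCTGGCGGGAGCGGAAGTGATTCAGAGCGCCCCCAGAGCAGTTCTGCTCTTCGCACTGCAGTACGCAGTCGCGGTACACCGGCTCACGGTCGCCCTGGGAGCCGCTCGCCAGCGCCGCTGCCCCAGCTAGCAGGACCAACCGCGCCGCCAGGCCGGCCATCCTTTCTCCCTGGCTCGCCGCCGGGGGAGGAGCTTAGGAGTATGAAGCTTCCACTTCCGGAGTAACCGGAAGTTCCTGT

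The PRMT6 peak covered 111 and the PARP1 peak 84 of the 250 bases before the CAV1 start, and both left the bases nearest to the start uncovered. At ITGB1 the PRMT6 peak covered all 250 bases and the PARP1 peak covered 236. At ERBB2 the PARP1 peak covered 242 bases and no PRMT6 peak lay there. The upstream sequences of VIM and FN1 are shown for contrast, since none of their bases lay under a peak of either list. VIM had its peaks just downstream of the start, whereas FN1, which encodes the matrix protein fibronectin, had no peak within 50 kb.
VIM, chr10:17227991-17228240, plus strand: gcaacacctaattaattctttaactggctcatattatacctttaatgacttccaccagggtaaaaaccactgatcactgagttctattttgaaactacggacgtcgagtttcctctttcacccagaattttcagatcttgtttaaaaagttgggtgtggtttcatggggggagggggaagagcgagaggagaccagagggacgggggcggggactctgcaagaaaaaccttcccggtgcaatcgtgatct
FN1, chr2:215436069-215436318, minus strand: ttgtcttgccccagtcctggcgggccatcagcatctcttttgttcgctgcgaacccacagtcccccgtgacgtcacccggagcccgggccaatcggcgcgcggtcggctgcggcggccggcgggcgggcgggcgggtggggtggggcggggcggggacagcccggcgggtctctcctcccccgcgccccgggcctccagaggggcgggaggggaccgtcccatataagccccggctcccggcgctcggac

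These sequences were searched on both strands for the E-box that SNAI and ZEB repressors recognize (CAGGTG or CACCTG) and for the GC box (GGGCGG or CCGCCC). None of the 5 sequences held the E-box, which 16.8% of 13819 RefSeq promoters of the same length held. The GC box occurred in 56.0% of these promoters. It was found 3 times before CAV1 and 3 times before ITGB1, with 1 match before VIM and none before ERBB2. FN1, with no peak, held 6 matches. These matches describe the letters only. The 5 sequences were chosen for their peaks or for contrast and do not stand for the other genes. The RefSeq promoter table had an entry at the 5′ end of the record for 25 of the 39 genes, so no share over the genes is given. Among these entries, those of AXL, ELF3, FOXA1, OCLN and ZEB1 held the E-box, with 1 match each.

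Promoter peaks were found at 4 of the 39 genes in the PRMT6 list, or 10.3% (interval 2.87% to 24.2%), beside 18.3% of all protein-coding genes. These were VIM, CAV1, ITGB1 and KRT19. In the PARP1 list the count was 5, or 12.8% (interval 4.3% to 27.4%), beside 22.5% of all genes, with VIM, CAV1, ITGB1, MMP14 and ERBB2. Both lists held a promoter peak at 7.69% of the 39 genes (interval 1.62% to 20.9%) and at 13.4% of all genes. Each background share lay inside the interval of the 39 genes, so no difference from all genes was detectable with this number of genes. The other 33 of the 39 genes had no promoter peak in either list.

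By lineage, promoter peaks of PRMT6 were found at 3 of 19 mesenchymal and basal genes (15.8%, interval 3.38% to 39.6%) and at 1 of 20 luminal and epithelial genes (5.0%, interval 0.127% to 24.9%). For PARP1 the counts were 4 of 19 (21.1%, interval 6.05% to 45.6%) and 1 of 20. Both lists held a promoter peak at 3 mesenchymal and basal genes and at 0 of 20 luminal and epithelial genes, for which the interval reached 16.8%. The intervals of the lineages overlapped in every one of these comparisons.

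**Figure D1:**
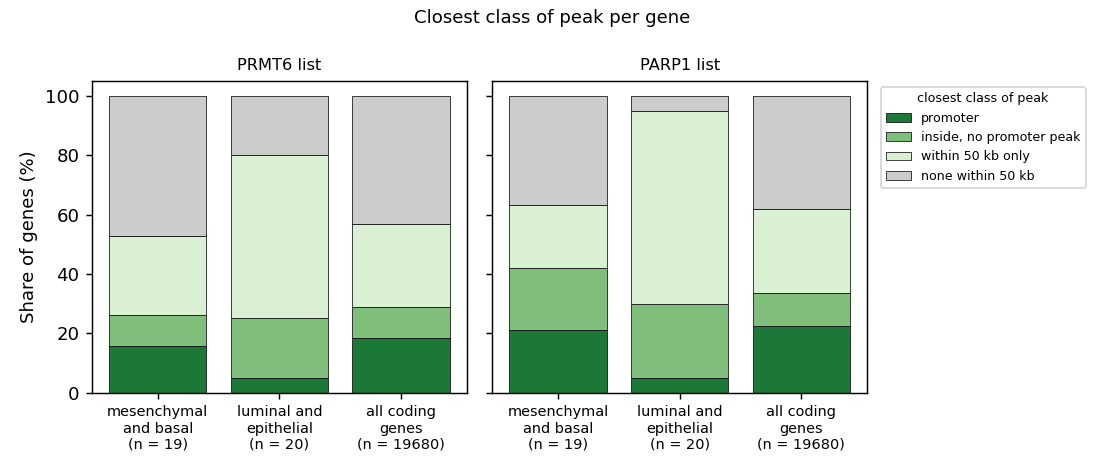
Share of genes in percent (vertical axis) by the closest class of peak, for the 19 mesenchymal and basal genes, the 20 luminal and epithelial genes and all 19680 protein-coding genes, with PRMT6 on the left and PARP1 on the right. Luminal and epithelial genes had the smallest grey share, with no peak within 50 kb at 4 of 20 genes for PRMT6 and 1 of 20 for PARP1.

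With peaks inside the gene or within 50 kb counted as well, the lineages were ordered the other way. A PRMT6 peak lay in the promoter, inside the gene or within 50 kb of it for 16 of 20 luminal and epithelial genes (80.0%, interval 56.3% to 94.3%) and for 10 of 19 mesenchymal and basal genes (52.6%, interval 28.9% to 75.6%), beside 56.9% of all genes. For PARP1 these counts were 19 of 20 (95%, interval 75.1% to 99.9%) and 12 of 19 (63.2%, interval 38.4% to 83.7%), beside 62.0% of all genes. Peaks within 50 kb and none closer were found at 16 of the 39 genes for PRMT6 (41.0%, beside 28% of all genes) and at 17 for PARP1 (43.6%, beside 28.5%). Luminal and epithelial genes made up 11 and 13 of these. No peak within 50 kb was found at 13 genes for PRMT6 (33.3%, beside 43.1% of all genes) and at 8 for PARP1 (20.5%, beside 38%). The PARP1 share of luminal and epithelial genes had an interval above the background, and its interval overlapped that of the mesenchymal and basal genes. KRT8 and KRT18 share their peaks, and CLDN3 and CLDN4 are neighbours, as are AXL and TGFB1, so the genes are not independent. The luminal and epithelial count for PARP1 changed with the peaks counted. With the higher-scoring 50% of PARP1 peaks it was 11 of 20 (interval 31.5% to 76.9%), beside 43.7% of all genes. Without peaks at promoters of other coding genes it was 15 of 20 (interval 50.9% to 91.3%), beside 51.3% of all genes. Both of these background shares lay inside the interval, and so did that with a limit of 10 kb (11 of 20, beside 41.6%). In the other alternatives the interval stayed above the background. These were the PARP1 list cut to the length of the PRMT6 list (17 of 20, interval 62.1% to 96.8%, beside 55.7%) and no peaks of the smallest width (16 of 20, interval 56.3% to 94.3%, beside 52.7%). With a limit of 100 kb it was 19 of 20 (interval 75.1% to 99.9%), beside 73.5%.

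All 26 of the genes with a PRMT6 peak within 50 kb also had a PARP1 peak within 50 kb. Over all protein-coding genes this held for 9371 of 11196 (83.7%). Both lists had peaks within 50 kb of 66.7% of the 39 genes, beside 47.6% of all genes. Conversely, 26 of the 31 genes with a PARP1 peak within 50 kb had a PRMT6 peak there (83.9%, beside 76.8% of all genes). The 5 genes with PARP1 peaks alone were ZEB1, THY1, PGR, FOXA1 and XBP1. A further 8 genes had no peak of either list within 50 kb (20.5%, beside 28.7% of all genes). They were SNAI2, TWIST1, CDH2, FN1, SPARC, LOX and MMP1 of the mesenchymal and basal group, and TFF1 of the luminal and epithelial group.

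**Figure D2:**
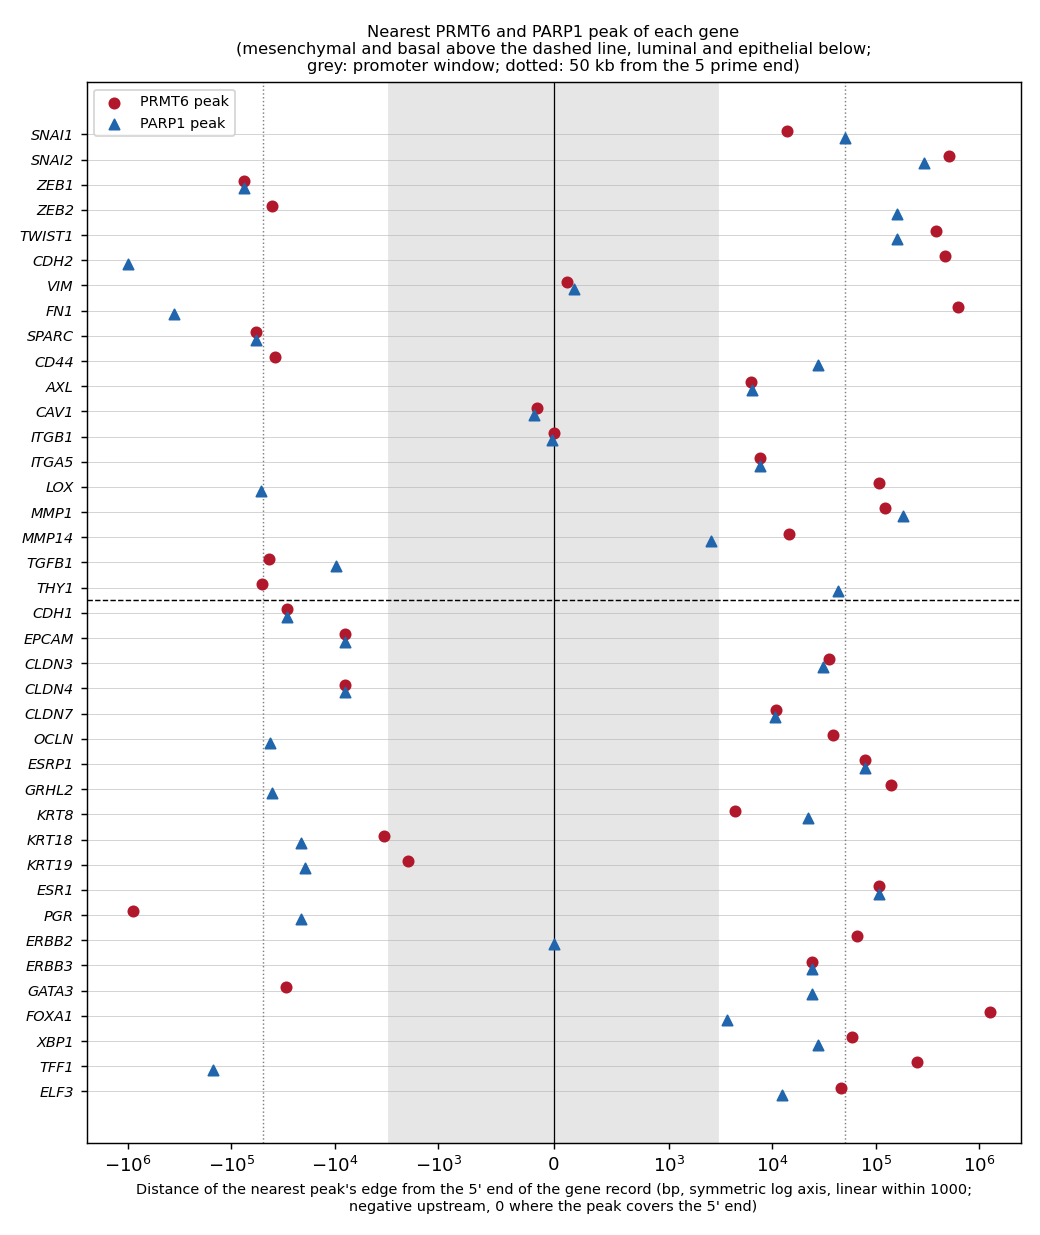
Distance of the nearest PRMT6 peak (circles) and PARP1 peak (triangles) from the 5′ end of each of the 39 gene records, in bp on a symmetric log axis that is linear within 1000 bp, with upstream to the left. VIM, CAV1 and ITGB1 had both symbols in the grey promoter window of 3 kb, MMP14 and ERBB2 the triangle only and KRT19 the circle only.

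The 5 EMT transcription factors had no promoter peak in either list, which 27.4% of all genes had in at least 1 list. None had a peak within 3 kb of any other annotated transcript start. With any start counted, 34.1% of all genes had a peak in at least 1 list. SNAI1, a repressor of CDH1, had its nearest PRMT6 peak 13844 bp downstream of its 5′ end (rank 6841). A PRMT6 peak of rank 2895 at chr20:50033965-50034297 overlapped a PARP1 peak of rank 3013, about 51 kb downstream of the same gene. ZEB1 held a PARP1 peak of rank 7034 in an intron, 131390 bp into the record, and no PRMT6 peak within 50 kb. At ZEB2 the PRMT6 peak (rank 4311) lay 40744 bp upstream, and the PARP1 peak (rank 5722) lay 24733 bp beyond the end of the record. For SNAI2 the nearest peaks were 512675 bp away in the PRMT6 list and 293994 bp away in the PARP1 list. For TWIST1 these distances were 384897 and 158813 bp.

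Of the 4 genes of the mesenchymal cytoskeleton and matrix, VIM alone had peaks within 50 kb. VIM encodes the intermediate filament vimentin and lies at chr10:17228241-17237593 on the plus strand. Its PRMT6 peak, chr10:17228358-17228988, began 117 bp downstream of the 5′ end, with a score of 6.58 and rank 2991. Its PARP1 peak, chr10:17228419-17228826, lay wholly within the PRMT6 peak, with a score of 5.12 and rank 8871. Both peaks lay over exon 1 of the canonical transcript and over VIM-AS1, an antisense RNA gene. Peaks carry no strand and cannot be assigned to either gene. A second overlapping pair lay 11.6 kb upstream, also over VIM-AS1, with rank 2235 for PRMT6 and 10178 for PARP1. Both VIM peaks of the PARP1 list were among its lower scores, at percentiles 23.7 and 11.8 (100 is the highest).

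The other 3 genes of this group had no peak of either list within 50 kb, which also held for 28.7% of all genes. The nearest peaks of FN1 were 625870 bp downstream (PRMT6) and 357918 bp upstream (PARP1) of its 5′ end. SPARC, which encodes a secreted matrix glycoprotein, had both lists just beyond the limit. A PARP1 peak of rank 95 lay 58212 bp upstream of it and a PRMT6 peak of rank 3526 lay 58283 bp upstream. LOX, the enzyme that crosslinks collagen, had its PARP1 peak 51251 bp upstream and its PRMT6 peak 108709 bp downstream.

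CAV1 and ITGB1 had the highest-ranked promoter peaks of the 39 genes. CAV1 encodes caveolin-1, the coat protein of caveolae, at chr7:116525009-116561185 on the plus strand. The PRMT6 peak, chr7:116524544-116524869, had a score of 7.94 and rank 1893. The PARP1 peak, chr7:116524560-116524842, had a score of 15.3 and rank 648 and lay wholly within the PRMT6 peak. The peaks ended 140 and 167 bp before the 5′ end. PARP1 alone had a further peak of rank 9223 that lay 12763 bp upstream.

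ITGB1 encodes integrin β1, the common subunit of most matrix-binding integrins, and lies at chr10:32900318-32958230 on the minus strand. Its PRMT6 promoter peak, chr10:32958142-32958684, covered the 5′ end, with a score of 10.4 and rank 1009. The PARP1 promoter peak, chr10:32958245-32958540, ended 15 bp upstream of the 5′ end, with a score of 12.6 and rank 1098. Upstream of ITGB1 lay the highest-ranked peaks around any of the 39 genes. At 22.2 kb upstream, the PRMT6 peak chr10:32980464-32980989 ranked 55 (score 26.6) and the PARP1 peak chr10:32980498-32980944 ranked 51 (score 31.2). A further overlapping pair, 47 kb upstream of ITGB1, had ranks 773 and 1904. It covered another annotated start of ITGB1 and lay over ITGB1-DT, a divergent RNA gene. ITGB1 thus had 3 overlapping pairs, and it also had peaks of 1 list alone. These were a PRMT6 peak of rank 4081 in an intron, and PARP1 peaks of rank 7982 in exon 13, of rank 6101 upstream and of rank 9402 beyond the end of the gene.

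Of the 7 mesenchymal surface proteins and caveolin, AXL and ITGA5 also had overlapping pairs, inside the gene rather than at the 5′ end. AXL encodes a receptor tyrosine kinase of mesenchymal tumor cells. Its PRMT6 peak, chr19:41225523-41226099, ranked 173 (score 18.6), and its PARP1 peak, chr19:41225649-41226130, ranked 1479 (score 11.4). They lay in an intron of the canonical transcript, 656 and 625 bp upstream of another annotated start of AXL. A stronger pair, with ranks 105 and 256, lay past the end of AXL at the promoter of HNRNPUL1. ITGA5 encodes integrin α5, which pairs with integrin β1 as the fibronectin receptor. Its intronic pair had rank 2674 for PRMT6 and rank 4164 for PARP1 and lay within 1771 bp of another annotated start.

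CD44, the hyaluronan receptor, had 2 PARP1 peaks inside the gene and no PRMT6 peak there. The PARP1 peak of rank 2153 lay over exon 15 of the canonical transcript, 101 bp from another start, and over the antisense record CD44-AS1. The other, of rank 3148, lay in an intron, and the PRMT6 peak of rank 6841 lay 37682 bp upstream of the gene. CDH2 encodes N-cadherin, and its nearest peaks were 464199 bp downstream (PRMT6) and 988052 bp upstream (PARP1). THY1, a surface glycoprotein of mesenchymal cells, had a PARP1 peak of rank 11625 within 50 kb and no PRMT6 peak.

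The matrix proteases differed from each other. MMP14, a membrane-anchored collagenase, had a PARP1 peak at chr14:22839172-22839372, in an intron 2587 bp downstream of the 5′ end. This peak ranked 9451 and had the smallest width in the list, 200 bp. The nearest PRMT6 peak to MMP14 began 14672 bp downstream of the 5′ end. MMP1, an interstitial collagenase, had no peak of either list within 50 kb. TGFB1, the ligand that induces EMT, had 3 PARP1 peaks and 1 PRMT6 peak within 50 kb. The nearest, of PARP1, lay 9796 bp upstream at the promoters of B9D2 and TMEM91. The pair shared by both lists (ranks 1786 and 4563) lay at the promoters of EXOSC5 and BCKDHA.

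**Figure D3:**
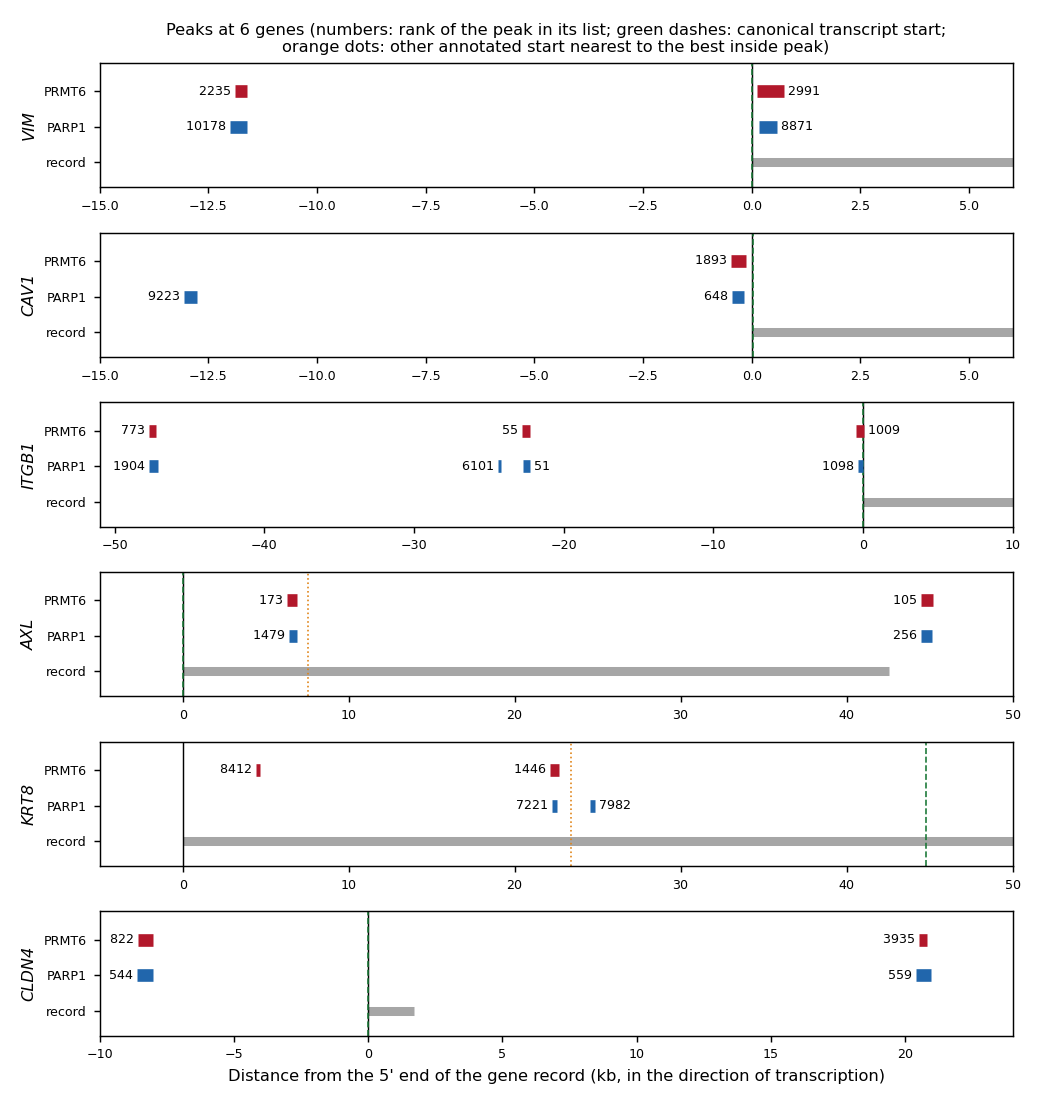
PRMT6 peaks (red) and PARP1 peaks (blue) around VIM, CAV1, ITGB1, AXL, KRT8 and CLDN4, by distance in kb from the 5′ end of the gene record, in the direction of transcription, with the rank of each peak in its list. At ITGB1, 3 overlapping pairs lay at the start, 22.2 kb and 47 kb upstream, and at AXL and KRT8 the best pairs inside the gene lay just upstream of another annotated start (orange).

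All 6 epithelial adhesion and junction genes lacked a promoter peak, which 27.4% of all genes had in at least 1 list. All 6 had peaks of both lists within 50 kb, beside 47.6% of all genes, and no test was made on so few genes. CDH1 encodes E-cadherin, at chr16:68737292-68835537 on the plus strand. An overlapping pair lay about 29.2 kb upstream, within the record of the neighbouring cadherin gene CDH3. It comprised the PRMT6 peak chr16:68707684-68708099 (rank 1926) and the PARP1 peak chr16:68707465-68708063 (rank 2910). EPCAM, an epithelial adhesion molecule, had an overlapping pair about 8 kb upstream (ranks 3592 and 3148). A PARP1 peak of rank 7383 covered another annotated start of EPCAM.

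The claudins, which seal tight junctions, each had at least 1 overlapping pair. CLDN4, at chr7:73830996-73832690, had a pair 8 kb upstream with ranks 822 and 544. A second pair, about 20.5 kb downstream, had ranks 3935 and 559. Neither pair lay at the promoter of another coding gene. CLDN3 had a pair 35 kb downstream of its 5′ end (ranks 694 and 2083), over the record BICDL3P, and a further PARP1 peak at the promoter of ABHD11. CLDN7 had 4 pairs, and each lay at the promoter of another gene. PRMT6 ranked 2348 and PARP1 4535 at ACADVL, and the ranks were 612 and 1266 at PHF23 and GABARAP. They were 4163 and 1022 at CTDNEP1 and ELP5, and 866 and 851 at EIF5A. OCLN, a further tight junction protein, had a PRMT6 peak of rank 4311 in an intron and a PARP1 peak of rank 11489 that lay 42033 bp upstream, with no overlap.

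Among the epithelial regulators, ESRP1, a splicing factor of epithelial isoforms, had 1 overlapping pair, at the promoter of DPY19L4 (ranks 2121 and 8457). GRHL2, a transcription factor that maintains epithelial junction genes, held only low-ranked peaks. PRMT6 had 1 in an intron (rank 8412), and PARP1 had 2 in introns (ranks 9957 and 10178) and 1 upstream (rank 9084). ELF3, an epithelial ETS factor, had 7 PARP1 peaks and 1 PRMT6 peak within 50 kb, all outside the gene. The highest-ranked PARP1 peak (rank 698) overlapped the PRMT6 peak (rank 2348), 46.3 kb downstream of the 5′ end.

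KRT8 and KRT18 encode the paired keratins of simple epithelium and lie side by side. All their peaks were the same ones, counted for both genes. They lay inside the KRT8 record and from 3385 to 23538 bp upstream of KRT18. The overlapping pair comprised the PRMT6 peak chr12:52927174-52927731 (score 8.97, rank 1446) and the PARP1 peak chr12:52927333-52927596 (score 5.77, rank 7221). These lay 705 and 864 bp upstream of an annotated start within KRT8. The RefSeq record of KRT8 begins 44784 bp from its canonical start, so its promoter window is not at the main transcript. KRT19, a keratin of luminal cells, had a PRMT6 promoter peak 1987 bp upstream, at chr17:41530295-41530583. This peak ranked 6748 (score 4.50) and had the smallest width in its list, 288 bp. The nearest PARP1 peak lay 19613 bp upstream of KRT19, with rank 4094.

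Of the 5 luminal transcription factors and hormone receptors, all had PARP1 peaks within 50 kb, beside 62.0% of all genes, and 2 had PRMT6 peaks, beside 56.9%. The PARP1 list is the longer one, and the difference was not tested. ESR1, the estrogen receptor, held a PRMT6 peak (rank 4835) and a PARP1 peak (rank 8920) in intronic sequence, 244 bp apart. It held 2 more PARP1 peaks, 1 of them over exon 8. PGR, the progesterone receptor, had a PARP1 peak of rank 5070 that lay 21452 bp upstream, over PGR-AS1, and its nearest PRMT6 peak was 897346 bp upstream. GATA3 had a PARP1 peak of rank 4226 over exon 5 of its canonical transcript and a PRMT6 peak of rank 5718 upstream, inside TAF3. FOXA1, which opens chromatin for the estrogen receptor, had a PARP1 peak of rank 10999 over exon 2, 3665 bp downstream of the 5′ end and so just outside the promoter window. XBP1, a transcription factor of secretory cells, had its PARP1 peak of rank 5850 at the promoter of CCDC117. TFF1, a target of the estrogen receptor, had its nearest PARP1 peak 151649 bp upstream and its nearest PRMT6 peak 248758 bp downstream.

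Of the receptor kinases, ERBB2 had a PARP1 peak, chr17:39687852-39688109, over the 5′ end of its record (score 8.03, rank 3581). This position is also the promoter of PGAP3, and it lies 11955 bp upstream of the canonical start of ERBB2. With the canonical start in place of the record end, no luminal or epithelial gene had a promoter peak in the PARP1 list. A pair shared by both lists (ranks 2287 and 8340) lay past the end of ERBB2. ERBB3 had 3 overlapping pairs beyond its end, all at promoters of other genes. Their ranks were 4600 and 657 at PA2G4, 426 and 1508 at RPL41 and ZC3H10, and 649 and 437 at ESYT1.

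Counted once each, 40 PRMT6 peaks and 67 PARP1 peaks lay at the promoters of the 39 genes, inside them or within 50 kb. Of these PRMT6 peaks, 27 (67.5%, interval 50.9% to 81.4%) overlapped a PARP1 peak. Over the PRMT6 peaks within 50 kb of any protein-coding gene the share was 49.6%. Of the PARP1 peaks, 27 (40.3%, interval 28.5% to 53.0%) overlapped a PRMT6 peak, beside 38.7% around all genes. Luminal and epithelial genes had 18 PRMT6 peaks within 50 kb of the record and outside it, including 2 peaks near KRT18 that lie inside the KRT8 record. Of these 18 peaks, 16 overlapped a PARP1 peak (88.9%, interval 65.3% to 98.6%), and 8 lay at the promoter of another coding gene. Of the peaks inside the 39 genes, 3 of 8 in the PRMT6 list and 3 of 15 in the PARP1 list overlapped the other list. The shares over all genes were computed for all classes of peak together, so these counts by class have no background beside them.

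Promoter peaks of the 39 genes were neither the highest nor the lowest of their lists. On a scale where 100 is the highest score in the list, the median percentile of the 4 genes with a PRMT6 promoter peak was 73.1 (range 25.2 to 88.9). The median over all 3599 genes with one was 71.8, with quartiles of 48.9 and 87.0. For PARP1 the median of 5 genes was 69.1 (range 18.1 to 94.4), beside 62.1 over 4428 genes (quartiles 35.8 and 82.5). CAV1 was highest in the PARP1 list and ITGB1 in the PRMT6 list, and MMP14 and KRT19 were lowest.

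**Figure D4:**
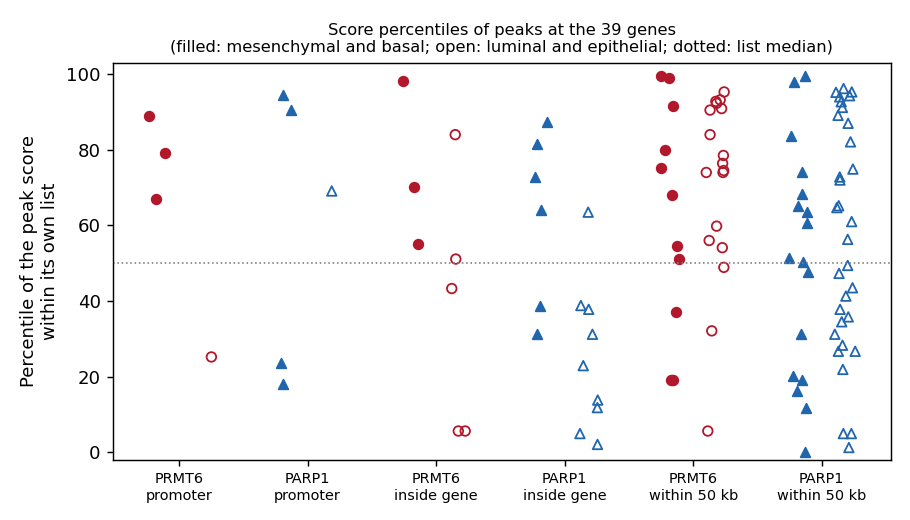
Score percentile within its own list (vertical axis, 100 the highest) of the peaks at the promoters of the 39 genes, inside them and within 50 kb, for PRMT6 and PARP1. Each point is a peak of a gene, so a peak near 2 of the genes appears once for each, and the highest points, at 99.4 and 99.6, are the pair upstream of ITGB1.

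The starts of 4 of the 39 records lay over 3 kb from the canonical start, and many genes have further starts. With a peak within 3 kb of any annotated transcript start counted, PRMT6 had 8 of the 39 genes (20.5%, beside 22.9% of all genes). The genes added were AXL, ITGA5, GRHL2 and KRT8. PARP1 had 11 (28.2%, beside 27.9% of all genes), with CD44, AXL, ITGA5, EPCAM, KRT8 and FOXA1 added. Both lists had 6 (15.4%, beside 16.7% of all genes), with AXL, ITGA5 and KRT8 joining VIM, CAV1 and ITGB1. On this count the shares of the 39 genes were close to those of all genes, and 26 genes had no peak of either list at any start.

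Across all genes, promoters rich in CpG held peaks more often. CpG content was the observed over expected number of CpG within 500 bp of the start in GRCh37, with values of at least 0.6 called rich. Both lists had promoter peaks at 18.9% of 11653 CpG-rich genes and at 5.23% of 7614 others. Of the 39 genes, 19 were CpG-rich, and VIM (0.792) was the only one of these with promoter peaks in both lists. CAV1 (0.584) and ITGB1 (0.541) had values below the threshold. ITGB1 has an annotated start at chr10:33005792, upstream of its record end at chr10:32958230, so its value may not describe the promoter with the peaks. The 250 bases before that record end held 32 CpG and were 78.4% G and C, and the ratio was not computed there. CDH2 had the highest ratio of those named here (0.985) and no peak near it, and XBP1 (0.908), TWIST1 (0.86), SNAI1 (0.802) and CDH1 (0.695) were CpG-rich without a promoter peak. CpG-rich genes were split almost evenly, with 9 in the mesenchymal and basal group and 10 in the luminal and epithelial group. These counts may depend on the start used. GATA3 (0.482) and CLDN7 (0.368) lay below the threshold, while the 250 bases before their canonical starts held 26 and 25 CpG.

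**Figure D5:**
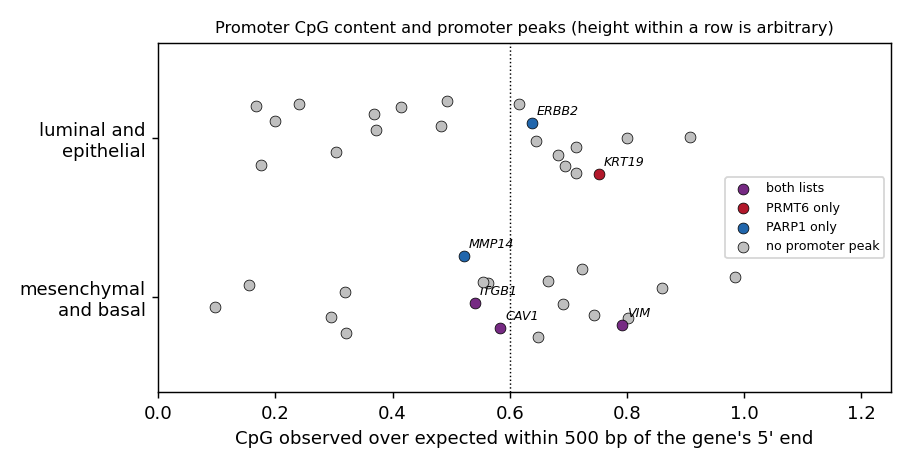
Observed over expected CpG ratio of the promoter (horizontal axis, no unit) for the 19 mesenchymal and basal and the 20 luminal and epithelial genes, marked by the lists with a promoter peak. Among the genes with peaks in both lists, VIM lay above the threshold of 0.6 (dotted), and CAV1 and ITGB1 lay below it. The ITGB1 value may not describe the promoter with the peaks, since it was read at the 5′ end of the GENCODE gene.

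Gene length moved with the peaks inside genes. Over all genes, a peak inside the record and outside the promoter window, with or without a promoter peak, was found in 2.84% of genes under 20 kb for PRMT6 and 3.31% for PARP1. In genes over 100 kb these shares were 36.1% and 38.5%. Of the 39 genes, 18 were under 20 kb, and 0 of these had such a peak of PRMT6 and 1 of PARP1. Of the 15 genes from 20 to 100 kb, 5 had one of PRMT6 and 6 of PARP1, beside 15.2% and 17.0% of all genes of this length. Of the 6 genes over 100 kb, 2 and 3 had one. Peaks inside the gene without a promoter peak were found at 6 of the 39 genes for PRMT6 (15.4%, beside 10.6% of all genes) and at 9 for PARP1 (23.1%, beside 11%), and the part of length in this was not tested. The median length was 23600 bp for the 39 genes and 24746 bp for all genes.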

How the data were processed

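PRMT6 and PARP1 were each mapped in 1 library from MDA-MB-231 cells, and groups were taken from the antibody in the labels. The study's methods describe CUT&Tag, and the labels add a ligation protocol, and which of them was used is not clear. Peak calling by the authors used MACS, separately for each antibody. The deposited files hold a position and a score for each peak, which is the −log10 of a p-value. The submitters' processing notes name CASAVA 1.4, Bowtie 0.12.8, MACS, MACS2 and hg19. Thresholds, duplicate handling and a control library are not given in the sources used here. Read depth is not part of the lists, so precision is that of the number of genes and peaks.

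Positions were read as GRCh38, despite the build in the notes, since 30.1% of PRMT6 and 29.5% of PARP1 peaks lay within 1 kb of GRCh38 5′ ends, against 4.04% and 3.94% in GRCh37. Starts and ends are printed as listed. Gene records were those of RefSeq GRCh38.p14. Strand came from the RefSeq promoter table for 15841 genes and from GENCODE 44 for 3839, which left out 372 of 20052 coding genes. Canonical starts and exons were GENCODE's in GRCh38 positions. Each gene was placed in its closest class. Overlap meant at least 1 shared bp. Python 3.11.15, numpy 2.4.6, pandas 2.3.3 and scipy 1.17.1 were used.

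The members, lists and roles were chosen with earlier results of these data known. All 39 genes are named, those with promoter peaks by position, score and rank and the others by their nearest peak or peaks within 50 kb. Genes of further lists are named where both lists had promoter peaks. No statistical tests were run, as neither antibody had replicates. Class assignment was tested on simulated data and recovered the class in 293 of 293 cases, and overlap calls matched a direct search for 500 of 500 PRMT6 peaks. Alternatives covered the score, list length, smallest widths, start sites, promoter window, peak centre and distance limit.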

Additional observations from a re-analysis of the deposited data

How the results depend on the processing

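Of 132 values recomputed under alternatives, 100 stayed within 1.5 times the reported value for counts, inside the 95% interval for overlap shares, or within 1 SD of the members for percentiles. The other 32 moved, 9 of them upward. Whether a comparison changed direction was not scored. The cause was not tested beyond what each alternative changes. With the higher-scoring 50% of each list, mesenchymal and basal genes with a PARP1 promoter peak numbered 2, luminal and epithelial genes with a PRMT6 promoter peak 0, those with an inside peak 2 (PRMT6) and 1 (PARP1), and 60.0% of PARP1 peaks overlapped. With the PARP1 list cut to the length of the PRMT6 list, luminal and epithelial genes with an inside PARP1 peak numbered 3. Without peaks of the smallest width, mesenchymal and basal genes with PRMT6 peaks within 50 kb only numbered 2, luminal and epithelial genes with a PRMT6 promoter peak 0 and with inside peaks 1 (PRMT6) and 3 (PARP1), and 96.2% of PRMT6 peaks overlapped. Overlap around all genes was not recomputed under these filters, so the shares of 60.0% and 96.2% have no background beside them. With any transcript start, mesenchymal and basal genes had promoter peaks at 5 (PRMT6), 7 (PARP1) and 5 (both) and inside peaks at 0 and 1. Luminal and epithelial genes had them at 3, 4 and 1 and inside at 2 and 3. With a promoter window of 1 kb, luminal and epithelial genes with a PRMT6 promoter peak numbered 0. With a limit of 10 kb, genes with near peaks only numbered 2 (PRMT6) and 1 (PARP1) for the mesenchymal and basal group and 5 and 5 for the other, and with 100 kb the first was 9. With the canonical start, chosen after seeing the data, luminal and epithelial genes with a PARP1 promoter peak numbered 0. CAV1 and ITGB1 had promoter peaks in both lists under every promoter setting run, and so did VIM except in the higher-scoring 50% of PARP1 peaks. No paired analysis was possible because the antibodies had 1 library apiece. Of the counts of genes with any peak within 50 kb, whose alternatives were chosen after seeing the data, those of luminal and epithelial genes fell to 11 for PARP1 with the higher-scoring 50%, to 10 for PRMT6 without peaks of the smallest width, and to 10 (PRMT6) and 11 (PARP1) with a limit of 10 kb. The shares of all genes, 56.9% (PRMT6) and 62.0% (PARP1), fell in these settings as well. They were 43.7% for PARP1 with the higher-scoring 50% and 38.5% for PRMT6 without peaks of the smallest width. With a limit of 10 kb they were 36.3% (PRMT6) and 41.6% (PARP1). Read depth is unknown, so a gene without a peak may have had signal below the peak caller's threshold.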

Other observations

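Other genes around the EMT program were described by the same promoter rule. Of 20 genes of TGF-β signaling, 7 had a PRMT6 and 6 a PARP1 promoter peak, beside 18.3% and 22.5% of all genes. Both lists had one at 4 of them (20%, interval 5.73% to 43.7%), beside 13.4% of all genes. The 4 were TGFBR2, the type II receptor, SMAD2, a receptor-activated transcription factor, SKIL, a repressor of SMAD signaling, and LTBP3, which binds latent TGF-β. At TGFBR2 the PARP1 peak covered the 5′ end with rank 633, and the PRMT6 peak had rank 2527.

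Of 35 further mesenchymal and basal genes, 4 had a PRMT6 and 3 a PARP1 promoter peak, beside 18.3% and 22.5% of all genes. Both lists had one at 3 of them (8.57%, interval 1.8% to 23.1%), beside 13.4% of all genes. These 3 were TCF3, an E-box binding factor (ranks 1737 and 1571), TIMP1, an inhibitor of matrix proteases (ranks 3218 and 3487), and MET, the receptor of hepatocyte growth factor (ranks 5718 and 3487). Of 40 further epithelial and luminal genes, 3 had a PRMT6 and 7 a PARP1 promoter peak, beside the same shares of all genes. Both lists had one at 3 of them (7.5%, interval 1.57% to 20.4%), beside 13.4% of all genes. These were TJP3, a tight junction scaffold, ESRP2, a splicing factor related to ESRP1, and MUC1, a mucin of luminal cells. The ESRP2 pair had ranks 556 and 2802. Of the 6 EMT marker proteins that the study blotted, VIM alone had promoter peaks in both lists. This share was 16.7% (interval 0.421% to 64.1%), beside 13.4% of all genes. JUP, which encodes plakoglobin, had a PARP1 promoter peak (rank 4829). The PARP1 list thus had promoter peaks at 2 of the 6, beside 22.5% of all genes. CDH1, CTNNA1, CDH2 and FN1 had no promoter peak in either list.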
